A study of Mus musculus with 5 samples.

Results

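Pparg, Cebpa, Cebpb, Cebpd, Zfp423 and Klf15 are the genes of 6 transcription factors of the fat lineage. They were chosen by name, and all 6 were listed among the 30099 gene symbols of the deposited matrices. Their levels were read in marker-gated cell classes of each library, above all in reticular stromal cells and in cells with UMIs of Plin1, the gene of the protein that coats the lipid droplet of fat cells. None of the 6 genes was used to gate a cell.

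In cultured fat precursors the C/EBP factors made from Cebpb and Cebpd appear first and switch on Pparg and Cebpa, whose products then hold each other on and drive the genes of lipid storage. Zfp423 marks precursors committed to fat, and Klf15 acts with the later factors. In bone marrow, reticular cells that carry the leptin receptor are a source of both marrow fat and bone cells. Cebpb and Cebpd also respond to inflammatory signals and, in neutrophils and macrophages, serve blood cell formation.

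All libraries came from femur marrow of mice with Lepr-cre; R26R-tdTomato, in which Cre driven from the leptin receptor locus leaves tdTomato in Lepr-expressing cells and their descendants, and tdTomato+ cells were sorted. Ablation is a surgery that empties the marrow cavity. At 15 weeks of age, control mice were uninjured, naive mice had been ablated once, at 13 weeks, and exhausted mice had been ablated at both 9 and 13 weeks. At 18 months of age, aged mice were uninjured and aged-injury mice were taken 1 week after ablation. Each group had 1 library and the labels give no number of animals, so no difference between groups could be tested. Surgery, age and library preparation cannot be told apart from any other difference between the libraries, and each interval below covers counting error only.

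After filtering, 47829 of 57968 cells were kept. Control kept 9253, naive 5242, exhausted 6277, aged 7560 and aged-injury 19497, with median depths of 8410, 7479, 7276, 6671 and 9512 UMIs per cell. Reticular cells needed Cxcl12 at 1% of UMIs or more, at least 2 UMIs of Lepr, no Plin1, Ptprc or Cdh5, and no sign of another class. They numbered 1999, 476, 633, 2476 and 2639 in the same order. The rule on other classes left out 18154 of 26736 otherwise qualifying cells because they held bone-lineage markers, so the reticular results are also given with that rule not applied.

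Plin1-positive cells needed at least 3 UMIs of Plin1 and no Ptprc or Cdh5, and numbered 9, 89, 13, 3 and 232. The fat-cell label was checked on 7 fat genes outside the gate, summed in CPM (counts per 1000000 UMIs of the class). They summed to 26565 CPM in the naive Plin1-positive cells and 10108 CPM in those of aged-injury, against 4213 to 5824 CPM in reticular cells. Fabp4 alone gave 19116 and 6188 CPM of the Plin1-positive sums. Adipoq went the other way, at 4406 and 3467 CPM against 5254 and 3991 CPM in reticular cells of the same libraries. The 8 reticular genes checked, Adipoq among them, summed to 5627 and 6568 CPM in Plin1-positive cells and 10274 to 12378 CPM in reticular cells. Cidec, which makes a lipid droplet protein of mature fat cells, stood at 725 CPM in naive and 79.7 CPM in aged-injury, and 61 of 89 and 45 of 232 cells held it. Cxcl12 reached 1% of UMIs in 17 of 89 and 130 of 232 of the cells. In aged-injury the class thus held many cells without Cidec and with reticular levels of Cxcl12, and it is called Plin1-positive throughout.

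RefSeq promoter sequences, of build GRCm38.p6, matched 5 of the 6 genes, and Cebpd had none. The 250 bases before a start site are shown for Pparg, which has several starts, for Cebpa and for Cebpb, because Pparg and Cebpa differed in one direction between the classes below and Cebpb in the other. The windows are chr6:115360894-115361143 and chr6:115421816-115422065 for Pparg, chr7:35119043-35119292 for Cebpa and chr2:167688665-167688914 for Cebpb, all on the + strand. Capitals mark matches on either strand to TGACG, the core of cyclic AMP response elements, and to TTNCNNAA, a C/EBP-type pattern, and the matches shown do not overlap.
Pparg, the first start: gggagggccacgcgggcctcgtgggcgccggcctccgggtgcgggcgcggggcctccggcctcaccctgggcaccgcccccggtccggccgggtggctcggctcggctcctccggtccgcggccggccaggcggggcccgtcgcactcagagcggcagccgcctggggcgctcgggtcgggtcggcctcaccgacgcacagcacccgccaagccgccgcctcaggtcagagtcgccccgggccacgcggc
Pparg, the third start: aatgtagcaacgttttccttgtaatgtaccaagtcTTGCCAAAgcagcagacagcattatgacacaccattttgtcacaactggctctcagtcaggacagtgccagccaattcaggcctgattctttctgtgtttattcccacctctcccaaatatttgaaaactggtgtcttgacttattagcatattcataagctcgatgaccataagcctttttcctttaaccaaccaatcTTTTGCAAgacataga
Cebpa: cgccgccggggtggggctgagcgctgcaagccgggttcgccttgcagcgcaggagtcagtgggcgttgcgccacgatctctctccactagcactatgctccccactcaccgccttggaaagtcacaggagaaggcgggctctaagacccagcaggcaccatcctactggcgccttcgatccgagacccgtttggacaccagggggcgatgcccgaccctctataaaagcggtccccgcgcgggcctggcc
Cebpb: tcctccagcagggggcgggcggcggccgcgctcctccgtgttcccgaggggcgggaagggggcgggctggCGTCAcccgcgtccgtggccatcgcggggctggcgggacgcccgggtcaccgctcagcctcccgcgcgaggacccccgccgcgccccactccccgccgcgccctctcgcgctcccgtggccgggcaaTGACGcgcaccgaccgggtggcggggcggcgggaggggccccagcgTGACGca
The Cebpb window held 3 matches to TGACG, beginning at positions -180, -53 and -7 counted back from the start site, and none to TTNCNNAA. The window of the third Pparg start held 2 matches to TTNCNNAA, at -215 and -16, and the Cebpa window held neither pattern. Of the windows not shown, that of the second Pparg start held neither pattern. The Klf15 window held 2 matches to TGACG, and the window of each Zfp423 start held 1 to TTNCNNAA. Of 32851 promoter windows of the same length, 17.8% held TGACG and 36.8% held TTNCNNAA at least once. A match is a description of these letters and was not tested as a binding site.

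Pparg and Cebpa rose in Plin1-positive cells over reticular cells of the same library, Cebpb and Cebpd fell, and Zfp423 and Klf15 did not pass the test. Only naive and aged-injury held the 20 Plin1-positive cells set for the test, so it rests on 4 summed samples from 2 libraries, with the library as a block and 1 residual degree of freedom. Over the 11970 genes tested by edgeR's quasi-likelihood test, 5.7% were called higher and 5.57% lower in Plin1-positive cells at an adjusted p under 0.05, 11.3% in all, and of the 6 genes 2 were called higher and 2 lower. With the library as a block, the p-values measure how far the class difference varied between the 2 libraries, which are of different conditions. The error also drew on the other genes tested, with a median of 7.565 prior degrees of freedom. The cells of a sum share a mouse group and are not replicates.

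Pparg, the nuclear receptor gene at the centre of fat formation, stood at 188 CPM in naive and 150 CPM in aged-injury reticular cells, and at 619 CPM (95% counting interval 579 to 660) and 391 CPM (373 to 409) in their Plin1-positive cells. Both Plin1-positive values lay above the reticular values of all 5 libraries. The log2 fold was 1.52 (SE 0.29), with an edgeR Benjamini-Hochberg adjusted p of 0.0155, and Pparg was higher in 2 of 2 libraries. In the libraries with too few cells for the test the direction was the same, at 2.31-fold in control with 9 cells, 2.92-fold in exhausted with 13 and 2.63-fold in aged with 3.

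Cebpa, whose product keeps Pparg on and is needed for the insulin response of fat cells, stood at 610 and 464 CPM in naive and aged-injury reticular cells. In their Plin1-positive cells it stood at 1222 CPM (1166 to 1280) and 1001 CPM (973 to 1029), again above every reticular value. The log2 fold was 1.02 (SE 0.27, edgeR adjusted p = 0.0438). This call lay near the threshold and was lost at a mitochondrial share under 10% (edgeR adjusted p = 0.0897) and without the deepest 5% of cells (edgeR adjusted p = 0.0676).

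Cebpb, an early C/EBP factor of the fat programme, went the other way. It stood at 636 and 534 CPM in naive and aged-injury reticular cells and at 238 CPM (214 to 264) and 257 CPM (243 to 272) in their Plin1-positive cells. The groups did not overlap, and the log2 fold was -1.27 (SE 0.28, edgeR adjusted p = 0.0252). In control, exhausted and aged the Plin1-positive level was 0.580, 0.382 and 0.673 times the reticular one, and the interval of the last, with 3 cells, ran from 0.399 to 1.06.

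Cebpd, the other early C/EBP factor, differed most among the 6 genes. It stood at 836 and 809 CPM in reticular cells and at 138 CPM (120 to 159) and 202 CPM (190 to 215) in Plin1-positive cells of naive and aged-injury. The log2 fold was -2.33 (SE 0.30, edgeR adjusted p = 0.00357), and the level was also lower in the other libraries, at 0.122, 0.107 and 0.488 times the reticular level in control, exhausted and aged. Without the library block none of the 4 calls held, with edgeR adjusted p of 0.0877 for Pparg, 0.128 for Cebpa, 0.0800 for Cebpb and 0.0514 for Cebpd.

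Zfp423, a zinc finger gene of committed fat precursors, stood at 63.0 and 72.4 CPM in reticular cells and 74.2 (60.9 to 89.5) and 77.9 (70.2 to 86.2) CPM in Plin1-positive cells of naive and aged-injury. The log2 fold was 0.13 (SE 0.26, edgeR adjusted p = 0.777), a difference within the spread of the fit. Klf15, a Krüppel-like factor gene that responds to glucocorticoids, stood at 20.5 and 16.7 CPM in reticular cells and at 15.7 and 7.06 CPM in Plin1-positive cells, from 23 and 34 UMIs. Its log2 fold was -0.90 (SE 0.35, edgeR adjusted p = 0.129), with a ratio of 0.764 (0.454 to 1.24) in naive and 0.423 (0.289 to 0.600) in aged-injury, and the call passed when 1 UMI of Plin1 was enough (edgeR adjusted p = 0.0310).

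**Figure D1:**
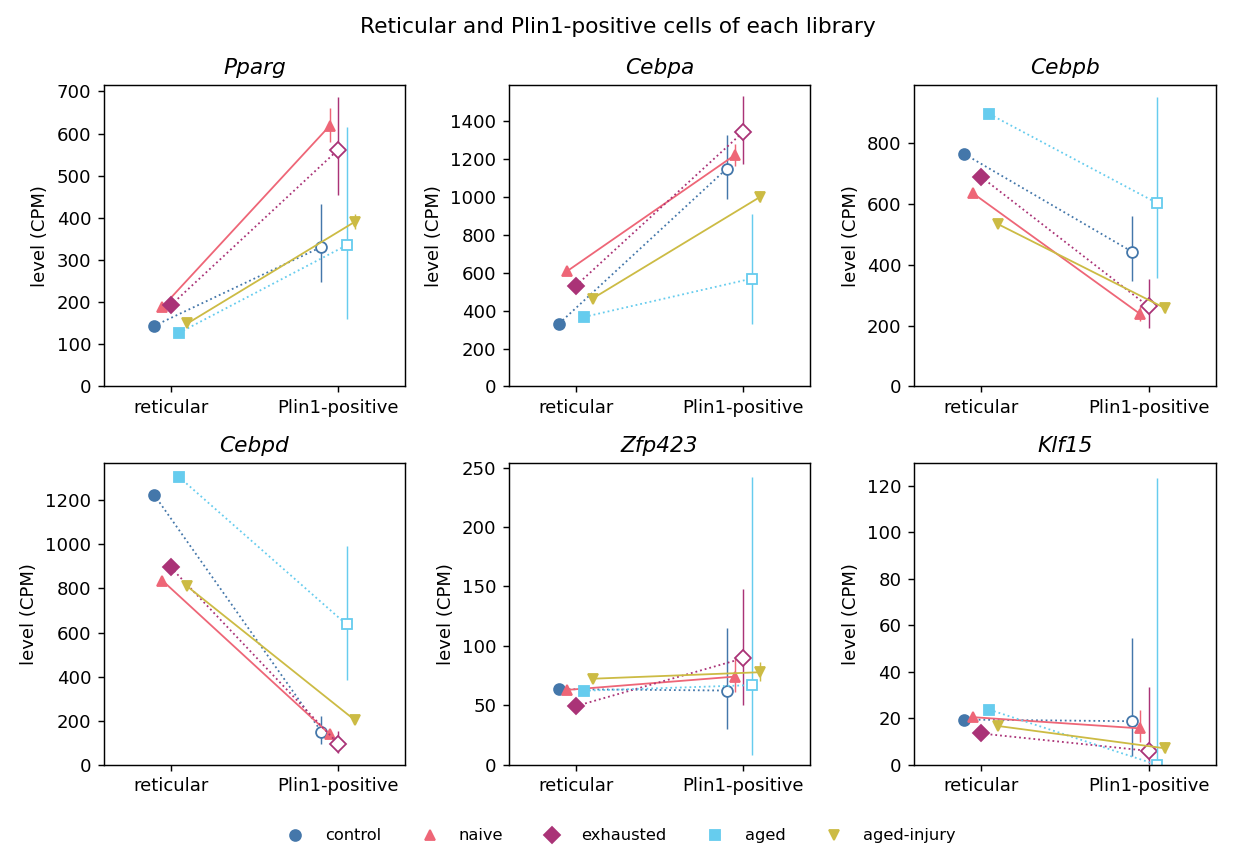
Level in CPM (vertical axis, from 0) of each gene in reticular and Plin1-positive cells, with 1 line per library and 95% counting intervals on the Plin1-positive values. Open symbols and dotted lines are libraries with fewer than 20 Plin1-positive cells. The lines of Pparg and Cebpa go up and those of Cebpb and Cebpd go down in all 5 libraries.

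Other measures moved with the class. The 14 early response genes, which tissue digestion can switch on, summed to 18452 and 27764 CPM in naive and aged-injury reticular cells and to 8202 and 15625 CPM in Plin1-positive cells. Reticular cells of the lowest early response share, with medians of 0.0759% in naive and 0.862% in aged-injury, had Cebpb at 395 and 357 CPM and Cebpd at 341 and 326 CPM. Neither share nor depth was matched to the Plin1-positive cells, and the part of the early response in the Cebpb and Cebpd results was not tested. Pericyte and smooth muscle markers summed to 1087 and 1392 CPM in Plin1-positive cells, with 4 and 5 of 5 markers detected, against 263 to 356 CPM in reticular cells. Cells with at least 2 UMIs of at least 2 of these markers had been left out of the reticular class but not of the Plin1-positive class. The part of these markers in the Pparg result was not tested. Endothelial markers summed to 11.6 and 23.3 CPM and macrophage markers to 5.44 and 2.08 CPM in Plin1-positive cells. Median depth was 9642 and 18999 UMIs in Plin1-positive cells against 5180 and 8162 in reticular cells.

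Within the Plin1-positive class, Pparg and Cebpa stood higher in the cells with Cidec. These cells were also shallower, with median depths of 7534 against 14389 UMIs in naive and 14614 against 19623 in aged-injury, and the part of depth was not tested. In naive, Pparg stood at 731 CPM (679 to 786) in the 61 cells with Cidec and 381 CPM (327 to 441) in the 28 without, and Cebpa at 1405 and 836 CPM. In aged-injury the 45 cells with Cidec had Pparg at 452 CPM and Cebpa at 1457 CPM, against 379 and 916 CPM in the 187 without. Cebpd stood at 99.3 CPM with Cidec and 220 CPM without it in naive, and at 186 and 205 CPM in aged-injury, where the intervals overlapped. Cebpb stood at 222 CPM with Cidec and 273 CPM without it in naive, with overlapping intervals. In aged-injury Cebpb was lower with Cidec, at 189 CPM (159 to 223) against 270 CPM (254 to 286). In naive, Zfp423 stood at 70.2 CPM with Cidec and 82.5 without and Klf15 at 19.1 and 8.47 CPM, nearer to reticular cells with Cidec, and for both the intervals overlapped. The cells without Cidec nonetheless lay above the reticular level of their library for Pparg and Cebpa and below it for Cebpb and Cebpd.

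The aged-injury library held enough cells for a series over Plin1 UMIs among cells with Cxcl12 and Lepr, the bone marker rule not applied. Its 10906 cells with no Plin1, 127 with 1 UMI, 37 with 2 and 114 with 3 or more had Pparg at 117, 240, 226 and 363 CPM. Cebpa stood at 447, 644, 639 and 970 CPM along the same series. Cells with a single Plin1 UMI thus already lay above those with none for both genes, and those with 1 and 2 UMIs did not differ beyond their counting intervals. Cebpb stood at 624, 336, 245 and 256 CPM and Cebpd at 971, 540, 307 and 267 CPM. Zfp423, at 68.1, 75.5, 60.5 and 76.6 CPM, showed no order. Klf15 stood at 17.7, 12.3, 8.64 and 8.60 CPM, the last 3 from 25, 6 and 21 UMIs. Its interval with 3 or more UMIs of Plin1 (5.32 to 13.1 CPM) lay below that with none (17.0 to 18.5 CPM).

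Median depth rose along this series from 9804 to 19255 UMIs, so it was repeated in cells of 10000 to 20000 UMIs. There Pparg stood at 110 CPM without Plin1, 265 CPM with 1 UMI and 351 CPM with 3 or more, and Cebpa at 467, 637 and 1037 CPM. Cebpb stood at 636, 422 and 265 CPM and Cebpd at 995, 577 and 332 CPM. The order of all 4 genes was as over all cells. Median depth in this band still went from 13004 UMIs without Plin1 to 14602 with 1 UMI and 16475 with 3 or more. The series is in 1 library, and its cells are not replicates. In naive, at all depths with the bone rule not applied, 21 cells held 1 UMI of Plin1. They had Pparg at 204 CPM (155 to 264) and Cebpa at 652 CPM (561 to 753). Naive cells with none had 150 CPM (145 to 156) and 584 CPM (573 to 595), so the intervals overlapped for both genes. Cebpb and Cebpd were lower with 1 UMI there, at 366 and 588 CPM against 757 and 1057 CPM.

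**Figure D2:**
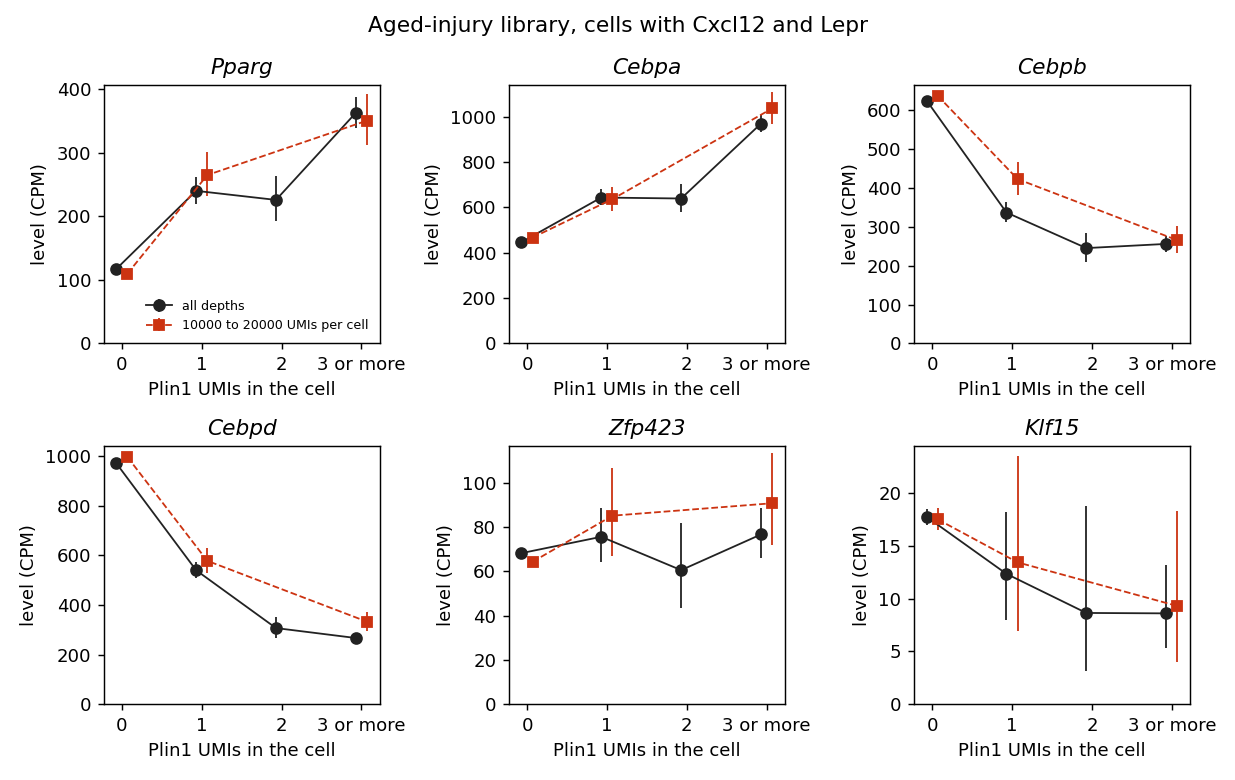
Level in CPM (vertical axis, from 0) of each gene by the number of Plin1 UMIs in the cell (horizontal axis), in aged-injury cells that met the Cxcl12 and Lepr gates, with 95% counting intervals. Circles are cells of all depths and squares cells of 10000 to 20000 UMIs, where the group with 2 UMIs had fewer than 20 cells. Pparg goes from 117 to 363 CPM and Cebpd from 971 to 267 CPM over all depths.

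Most listed genes of fat function, targets of PPARG and C/EBPA among them, were also higher in Plin1-positive cells. Of 19 tested fat function and target genes 16 rose, none fell and 3 did not pass by edgeR, with 0 lower also at an unadjusted p under 0.05 and by DESeq2. The 19 genes had a median log2 fold of 4.50 against -0.005 over all genes tested. Adipoq, lower in CPM in Plin1-positive cells as given above, and Lpl were among the 3 that did not pass. These genes share the cells with Plin1 that define the class, so the list is no independent check on Pparg and Cebpa. Pck1, of glyceride synthesis, had a log2 fold of 8.97 (edgeR adjusted p = 0.000153) and Cfd, the adipsin gene, one of 8.02 (edgeR adjusted p = 0.00011). Of 21 other fat-promoting regulators and partners 6 rose and 3 fell, with a median of -0.30, and DESeq2 called 3 higher and 1 lower. The lipid synthesis regulators Mlxipl and Srebf1 rose by 2.87 and 1.77 and the coactivator gene Ppargc1b by 2.55, while Stat5b fell by 1.73 on the log2 scale (edgeR adjusted p = 0.00326, 0.0204, 0.0342 and 0.00886).

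Over all genes tested by edgeR 5.7% were called higher and 5.57% lower. The genes listed as fat-opposing regulators were chosen by name, and their role in these cells was not tested. Of the 12 tested none rose and 3 fell by edgeR, with a median of -0.41. The 3 were Runx2, the master regulator of bone formation, at -1.72, Id2 at -1.35 and the Notch target Hes1 at -1.30 (edgeR adjusted p = 0.0107, 0.0212 and 0.0221). Cells with bone-lineage markers had been left out of the reticular class only. Neither of the 2 other C/EBP genes tested passed the test. Of the 14 early response genes none rose and 7 fell, with a median of -0.999. In these 3 lists 0 genes were higher at an unadjusted p under 0.05 and 0 by DESeq2, and 0 other C/EBP genes were lower by either. Among the early response genes that fell were Socs3 at -1.87 and Egr1 at -1.33 (edgeR adjusted p = 0.0155 and 0.0195).

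Across all gated classes the 6 genes had different homes. Levels are medians over libraries with at least 20 cells of the class, with the range over libraries, and 5 classes had such cells in every library beside the reticular class. Pparg was highest in Plin1-positive cells, at 505 CPM, and came next in pericytes and smooth muscle at 279 CPM (178 to 347) and endothelium at 254 CPM (144 to 485). The Plin1-positive values, 391 and 619 CPM, did not overlap the pericyte range but did overlap that of endothelium, which reached 485 CPM in exhausted. Pericytes overlapped endothelium, and endothelium overlapped the reticular class, at 150 CPM (127 to 192). Macrophages held 98.1 CPM (59.3 to 132), and B-lineage cells, which served as background, 4.78 CPM (3.54 to 7.65). After thinning every cell to 3000 UMIs, 69.6% of naive and 58.9% of aged-injury Plin1-positive cells held a Pparg UMI, against 27.3% to 37.4% of reticular and 0.614% to 2.23% of B-lineage cells. Unthinned shares were 84.3% and 94.0% in Plin1-positive, 39.7% to 55.3% in reticular and 1.72% to 4.08% in B-lineage cells, whose median depths were 4740 to 5512 UMIs.

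Cebpa separated the stromal classes more sharply. Plin1-positive cells held a median of 1111 CPM, reticular cells 464 CPM (332 to 610) and macrophages 225 CPM (172 to 304), and these 3 ranges did not overlap. Bone-lineage cells held 108 CPM (92.6 to 131), pericytes and smooth muscle 112 CPM, which did not differ from them beyond the spread, and endothelium 25.7 CPM. Thinned to 3000 UMIs, 53.9% to 72.6% of reticular cells held a UMI.

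Cebpb was highest in neutrophils, at 938 CPM (920 to 1051), above reticular cells at 689 CPM (534 to 895). Macrophages, at 459 CPM, and bone-lineage cells, at 420 CPM, overlapped the reticular range. Plin1-positive cells, at 248 CPM, came after fibroblasts, at 283 CPM, with overlapping ranges. In pericytes and smooth muscle Cebpb ran from 282 to 1304 CPM, the widest range over libraries of any class.

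Cebpd had its highest median in reticular cells, at 896 CPM (809 to 1305). Fibroblasts at 739 CPM, bone-lineage cells at 639 CPM and endothelium at 583 CPM followed and overlapped one another. Bone-lineage cells, up to 842 CPM, and endothelium, up to 892 CPM, also overlapped the reticular range, and fibroblasts, up to 798 CPM, did not. Neutrophils held 431 CPM, and Plin1-positive cells 170 CPM, near the 1 chondrocyte sum of 159 CPM. Macrophages held 102 CPM, so the 2 myeloid classes, both high in Cebpb, stood apart in Cebpd, with ranges of 414 to 447 and 79.5 to 145 CPM.

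Zfp423 was shared by all stromal and vascular classes and nearly missing from blood cells. Plin1-positive, endothelial, reticular and pericyte cells stood at 76.0, 71.7, 63.0 and 59.1 CPM, each overlapping the next in this order, and the 4 blood classes at 2.45 to 6.69 CPM. The Plin1-positive values of 74.2 and 77.9 CPM lay above the reticular range of 49.3 to 72.4 CPM by less than the spread over reticular libraries. Klf15 was the lowest of the 6 in UMIs and the most restricted, at 19.4 CPM (13.5 to 23.7) in reticular cells, 11.4 CPM in Plin1-positive cells and 10.4 CPM in fibroblasts. The Plin1-positive range overlapped each of the others, and the medians of the blood classes lay under 1 CPM. Reticular values lay above those of fibroblasts (2.24 to 12.9 CPM), which rest on 8, 3 and 3 UMIs in control, aged and aged-injury. The counting interval of control fibroblasts, 5.58 to 25.5 CPM, overlapped the reticular range, so the 2 classes were not separated beyond counting error.

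**Figure D3:**
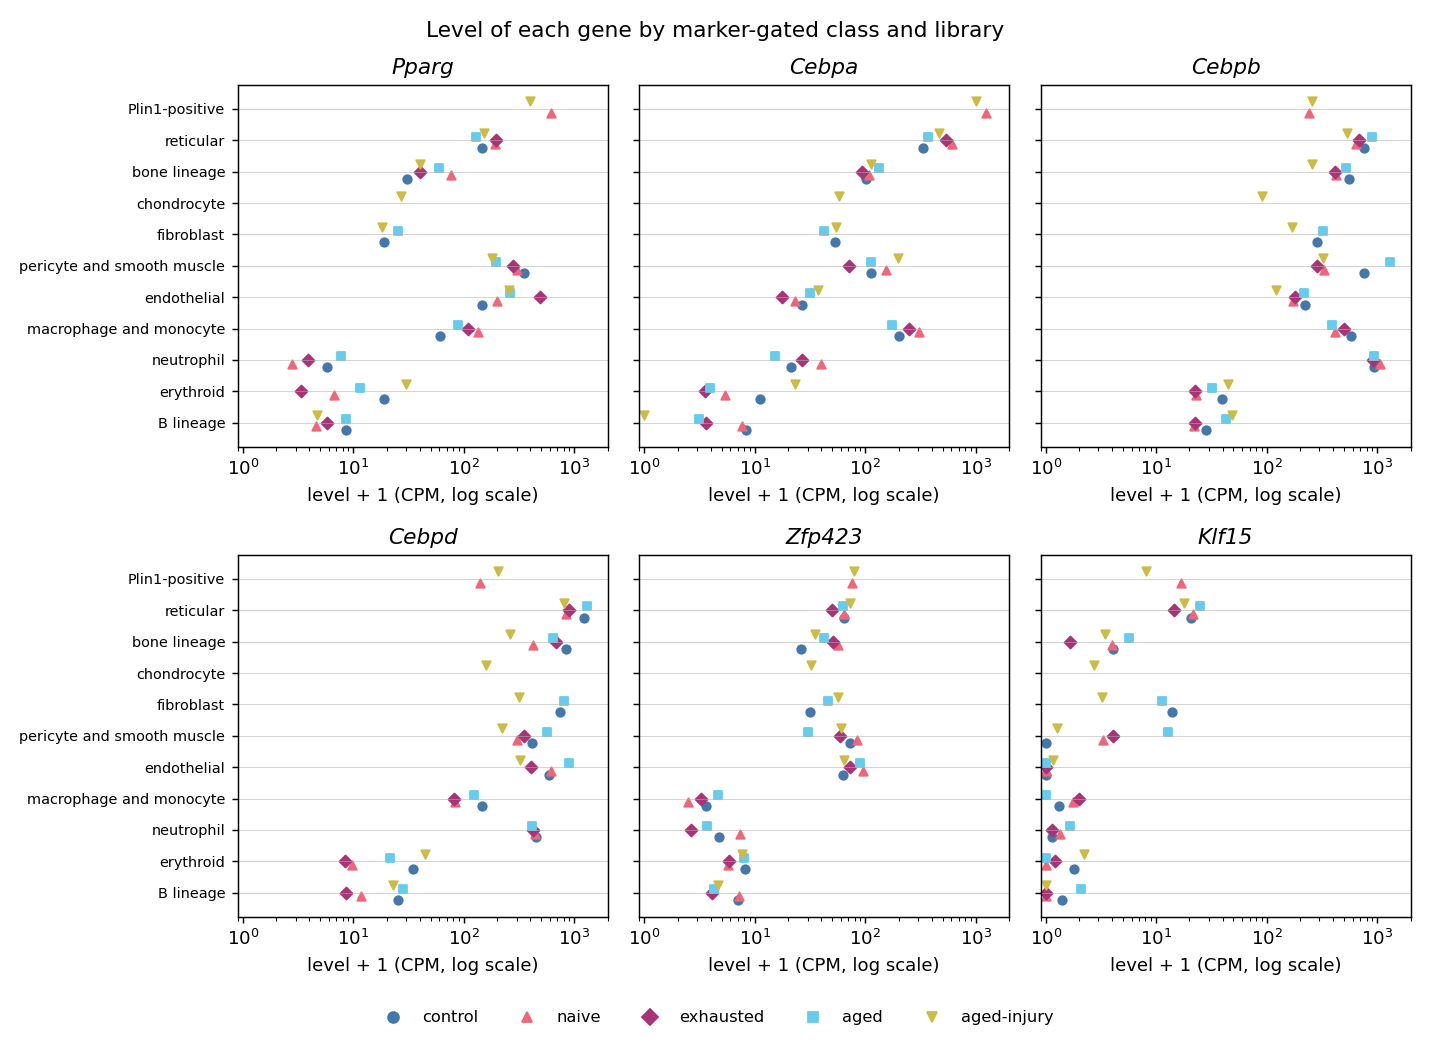
Level plus 1 in CPM (horizontal axis, log scale) of each gene in each marker-gated class (vertical axis), with 1 symbol per library of at least 20 cells in the class. Plin1-positive cells lie to the right of reticular cells for Pparg and Cebpa and to the left for Cebpb and Cebpd, and blood classes lie near the left edge for Zfp423 and Klf15.

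Within reticular cells the genes varied less between libraries than between classes. None of the 6 genes differed 2-fold or more in any of the 5 pairs of libraries compared. Over all genes of at least 5 CPM such differences made up 7.19% for naive over control and 4.1% for exhausted over control. They made up 4.56% for exhausted over naive, 1.9% for aged over control and 6.77% for aged-injury over aged. Against such low shares nothing particular is read from the 6 genes. The 3 ablated libraries lay all above the 2 uninjured ones for Pparg and Cebpa and all below them for Cebpb and Cebpd. Among all genes 28.7% lay above and 10.6% below in this way, 39.3% in all, and nothing particular is read from the 4 of 6 genes against that share. No test was made, and an exact permutation test of 3 libraries against 2 could not go below p = 0.2.

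Cebpa gave the clearest order. It stood at 332 CPM in control and 367 CPM in aged, against 610 CPM in naive, 532 CPM in exhausted and 464 CPM in aged-injury. Naive was 1.84-fold above control (95% counting interval 1.74 to 1.94), exhausted 1.60-fold (1.52 to 1.68), and aged-injury 1.26-fold above aged (1.22 to 1.31). Every ablated value was above every uninjured one, also in cells of 10000 to 20000 UMIs with the bone rule not applied, at 615, 528 and 467 CPM against 348 and 403 CPM. Among cells of 2000 to 5000 UMIs that met the bone rule the groups overlapped, with aged-injury at 306 CPM and aged at 329 CPM.

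Pparg stood at 144 CPM in control and 127 CPM in aged, against 188 CPM in naive, 192 CPM in exhausted and 150 CPM in aged-injury. The ratio was 1.31 (1.20 to 1.44) for naive over control and 1.17 (1.11 to 1.24) for aged-injury over aged. With the bone rule not applied and 1 UMI of Lepr enough, the uninjured values were 131 and 116 CPM and the ablated ones 151, 156 and 118 CPM, and the groups overlapped.

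Cebpd stood at 1226 CPM in control and 1305 CPM in aged, above 836 CPM in naive, 896 CPM in exhausted and 809 CPM in aged-injury. The ratio was 0.682 (0.655 to 0.710) for naive over control and 0.620 (0.607 to 0.632) for aged-injury over aged. Cebpb stood at 764 CPM in control and 895 CPM in aged, above 636 CPM in naive, 689 CPM in exhausted and 534 CPM in aged-injury, with ratios of 0.832 (0.793 to 0.872) and 0.596 (0.582 to 0.611) for the same pairs. Both genes were thus lower after ablation in both ages over all gated cells.

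In the young pair the size and order of the difference varied between bands of depth. Among cells of 10000 to 20000 UMIs with the bone rule not applied, Cebpb stood at 849 CPM in naive and 781 CPM in control, and Cebpd at 1227 and 1238 CPM. In the old pair both stayed lower, with Cebpb at 636 CPM in aged-injury and 892 CPM in aged, and Cebpd at 995 and 1306 CPM. Among reticular cells of 2000 to 5000 UMIs, naive held 318 CPM of Cebpb and 369 CPM of Cebpd against 669 and 1032 CPM in control. The median early response share moved with the band. With the bone rule not applied it was 0.0893% in naive and 1.63% in control at 2000 to 5000 UMIs, and 2.33% and 3.52% at 10000 to 20000 UMIs, and the parts of depth and of early response were not tested apart. Over the 5 bands of depth and gate that were run, the ablated libraries lay all below for Cebpd in 5 and for Cebpb in 3. They lay all above for Cebpa in 3 and for Pparg in 2. At 10000 to 20000 UMIs the Cebpd intervals of naive (1205 to 1250 CPM) and control (1224 to 1251 CPM) overlapped. Bands of the 2 gates share cells, the share of all genes was not computed in these bands, and nothing particular is read from these counts.

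In control and aged, Zfp423 stood at 63.7 and 62.3 CPM, and in the ablated naive, exhausted and aged-injury libraries at 63.0, 49.3 and 72.4 CPM. Klf15 stood at 19.4 and 23.7 CPM in the uninjured libraries and at 20.5, 13.5 and 16.7 CPM in the ablated ones. The exhausted library was lowest for both. Exhausted over naive was 0.783 (0.641 to 0.957) for Zfp423 and 0.657 (0.450 to 0.954) for Klf15, but the Zfp423 groups and the Klf15 groups overlapped between ablated and uninjured libraries. Between the uninjured ages, aged over control was 0.886 (0.833 to 0.944) for Pparg and 1.17 (1.14 to 1.20) for Cebpb.

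**Figure D4:**
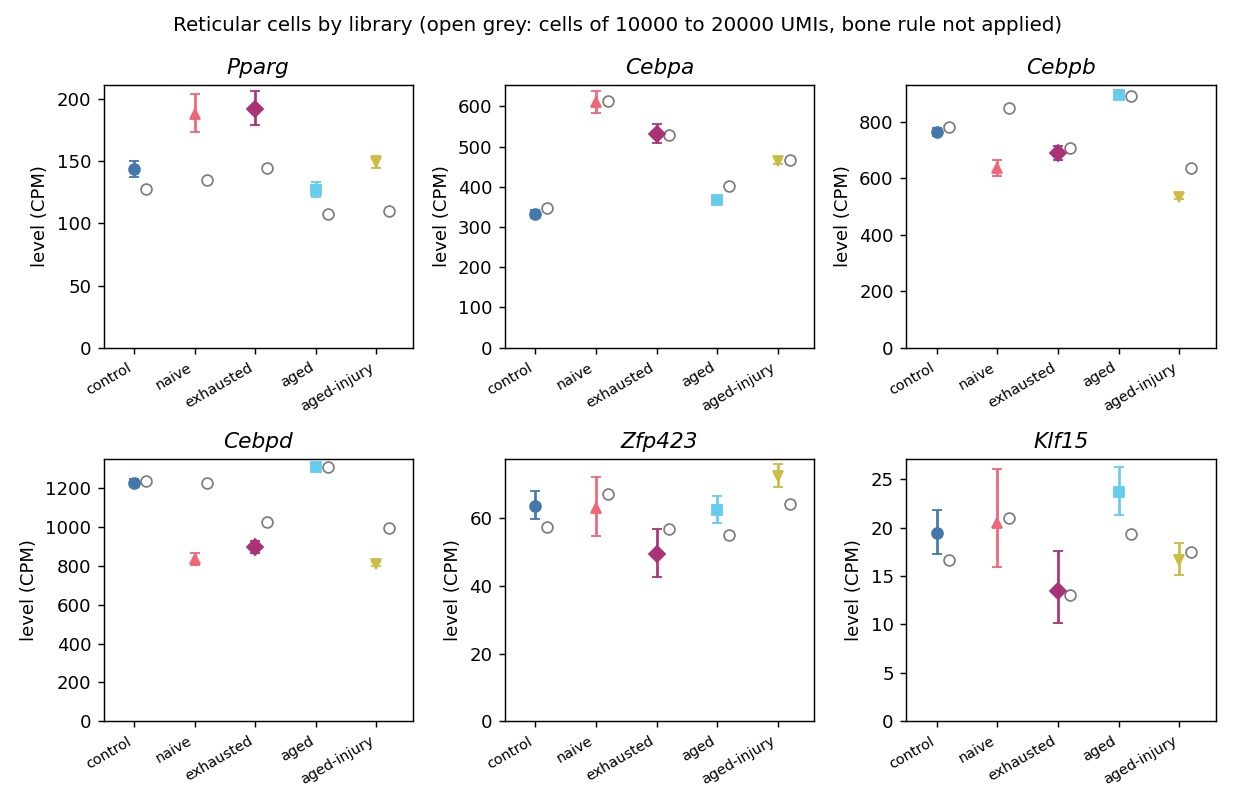
Level in CPM (vertical axis, from 0) of each gene in reticular cells of each library, with 95% counting intervals. Open grey circles are cells of 10000 to 20000 UMIs with the bone marker rule not applied. Cebpa keeps its order in both sets, while naive Cebpd moves from 836 to 1227 CPM, close to control.

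Cebpb and Cebpd followed the share of early response genes in each reticular cell. Cells were put in 3 groups by the share of their UMIs from the 14 early response genes, cut at 1.63% and 4.32%, the points that split the control cells evenly. Neither gene is among the 14. In control Cebpd went from 486 CPM in the lowest group to 1108 in the middle and 1899 in the highest, and Cebpb from 308 to 772 to 1092 CPM. The same order held in all 5 libraries for both genes. In control Pparg stood at 151, 135 and 147 CPM and Cebpa at 289, 345 and 351 CPM. Cebpa also went up over the groups in the other libraries, most in exhausted, at 335, 597 and 607 CPM. It rose least in aged-injury, at 453, 469 and 473 CPM, where the intervals overlapped. Pparg was highest in the lowest group in every library, at 221, 149 and 160 CPM in naive and 253, 159 and 197 CPM in exhausted.

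The median share of early response UMIs differed between libraries, at 3.01% in control and 2.88% in aged, and 0.604%, 2.18% and 2.36% in the ablated naive, exhausted and aged-injury. Within the middle group Cebpb stood at 870 CPM in naive and 772 CPM in control, and Cebpd at 1223 and 1108 CPM, so naive was not lower there. In the lowest group, which held 320 of the 476 naive cells, Cebpb was 1.28-fold (1.16 to 1.41) and Cebpd 0.702-fold (0.639 to 0.770) the control level, and in the highest group the ratios were 0.976 (0.868 to 1.09) and 1.12 (1.03 to 1.21). For aged-injury over aged, Cebpb was 1.01 (0.944 to 1.08), 0.616 and 0.624 in the lowest, middle and highest groups, so no difference was detectable in the lowest. Cebpd was 0.539, 0.716 and 0.809, lower in all 3. Cebpa was 1.92, 1.91 and 2.10-fold higher in naive than in control in the lowest, middle and highest groups. The naive highest group held 37 cells.

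**Figure D5:**
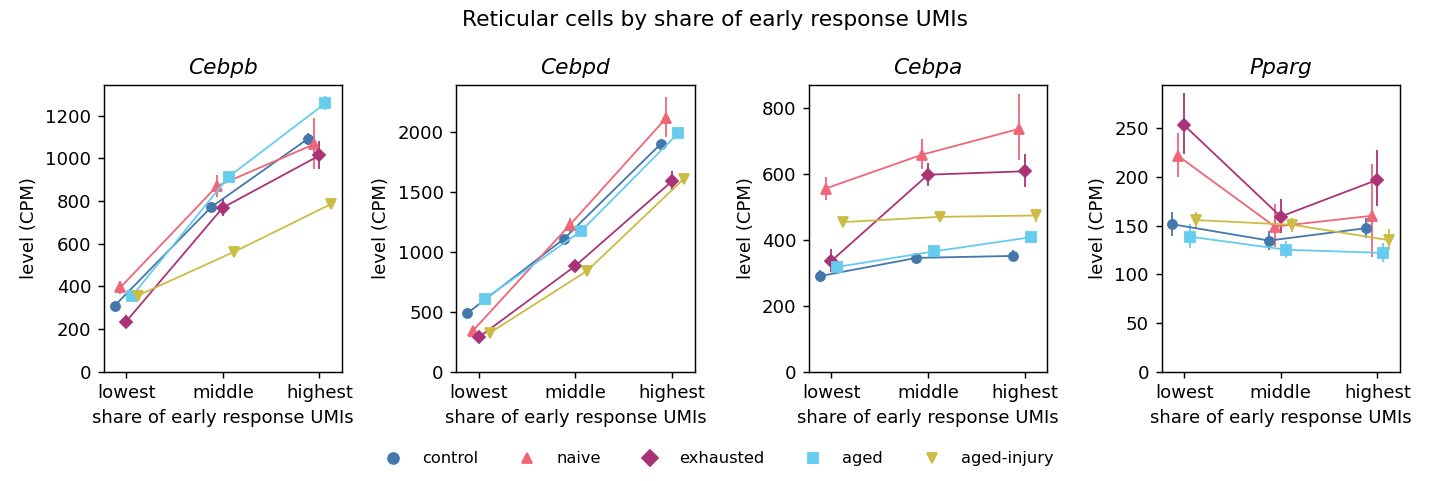
Level in CPM (vertical axis, from 0) of Cebpb, Cebpd, Cebpa and Pparg in reticular cells put in 3 groups by their share of early response UMIs (horizontal axis), with 1 line per library and 95% counting intervals. The lines of Cebpb and Cebpd go up in every library, while Pparg in control lies between 135 and 151 CPM. From the lowest to the highest group, Cebpa in exhausted goes from 335 to 607 CPM and Pparg in naive from 221 to 160 CPM.

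Plin1-positive cells could be set side by side between libraries only with the gate at 1 UMI of Plin1, which gave 26 control, 153 naive, 33 exhausted and 538 aged-injury cells. Pparg stood at 185, 516, 395 and 312 CPM in these. Naive was 2.79-fold above control (2.20 to 3.58) and exhausted 2.13-fold (1.59 to 2.88). Cebpd stood at 581, 216, 199 and 280 CPM, with naive at 0.371 of control (0.316 to 0.437). Of the 26 control cells 9 reached 3 UMIs of Plin1, and of the 153 naive cells 89, so the mix of cells differed between the libraries.

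Over the 44 sums of a class in a library, the genes most like each member by Pearson's r of log2(CPM + 1) among 12199 compared were Fblim1 at 0.92, Itga1 at 0.90 and Plxnd1 at 0.89 for Pparg. For Cebpa they were Lpl at 0.89, Cd302 at 0.88 and Trf at 0.87, and for Cebpb Nfil3 at 0.91, Tnfrsf1a at 0.88 and Tmem38b at 0.88. For Cebpd they were App at 0.93, Rybp at 0.91 and Slco3a1 at 0.91, for Zfp423 Tcf7l1, Adamts9 and Tead1 at 0.96 each, and for Klf15 Chrdl1 at 0.87, Myorg at 0.87 and Mc5r at 0.86. Among the members themselves Cebpb and Cebpd were most alike, at 0.85, and Cebpb and Zfp423 least, at 0.30. Sums of a library share its preparation and depth, so these values describe the classes and carry no p.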

How the data were processed

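The values deposited by the authors were UMI counts per gene and cell, 1 matrix per library, whole numbers with no normalization. Per the submitters' processing notes Seurat 5.1 and GRCm39 were used. Neither labels nor notes name an aligner or a counting tool (not given in the sources used here). Matrices were joined by gene symbol. Cells with at least 500 genes, 1000 UMIs and under 25% mitochondrial UMIs were kept. Classes were gated on markers, with at least 2 UMIs of at least 2 markers for the other classes. No doublet caller was run, and the deepest 5% of cells were left out as an alternative. Libraries shared 0 to 5 barcodes, none with equal counts.

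UMIs were summed per class and library and given as CPM, with exact Poisson 95% intervals. Ratios have exact conditional binomial 95% intervals. Plin1-positive sums were tested against reticular sums with edgeR 4.0.16 in R 4.3.3, by the quasi-likelihood test with TMM scaling, the default filter, the library as block and Benjamini-Hochberg adjustment over all genes. Both sums of a pair came from the same library, which is the source of the pairing. DESeq2 1.42.0 was an alternative. On simulated counts for this comparison, over 11970 genes, the test recovered 80% of 2-fold and 100% of 4-fold changes at a dispersion of 0.02, and 2% and 46% at 0.1. The simulation changed 100 genes at each fold, chosen among genes of higher counts, and set no difference between libraries. The common coefficient of variation in the data was 0.22. Dispersion is the square of this coefficient, so the data lay between the 2 simulated settings. The recovered shares do not give the power of the fit of the data.

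The 6 genes were named always, then up to 4 called genes of each pathway list with the largest log2 fold, and the 3 genes most like each member. Members and lists were chosen with earlier results of these data known. The bands of depth, the early response groups, the fit of all 5 libraries and, for Plin1-positive against reticular cells, the gates with Cxcl12 under 1% or with the bone rule not applied were added after seeing the data.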

Additional observations from a re-analysis of the deposited data

How the results depend on the processing

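Over the alternatives run, the log2 folds of Pparg, Cebpa, Cebpb and Cebpd between Plin1-positive and reticular cells kept their direction. Without the replicate block, that is without the pairing by library, they were 1.55, 1.02, -1.27 and -2.31 and none was called by edgeR, with 31 genes higher and 22 lower over all genes. Cebpa was also lost at a mitochondrial share under 10% (0.89) and without the deepest 5% of cells (1.13), and Klf15 was called with 1 UMI of Plin1 (-0.89). Calls over all genes, higher and lower, were 1161 and 1217 with no filter, 1342 and 1178 with 1 UMI of Plin1, 1391 and 1442 with Cidec required, 256 and 267 at a mitochondrial share under 10%, and 1275 and 1223 with the bone rule not applied. They were 1060 higher with Cxcl12 under 1% in Plin1-positive cells, and 1123 lower with all 5 libraries at any number of cells. The causes were not tested. With 1 library left out, from the 2 tested or from all 5, the log2 fold ranged from 1.11 to 1.72 for Pparg, 0.82 to 1.16 for Cebpa, -1.42 to -1.06 for Cebpb, -2.81 to -1.999 for Cebpd, -0.03 to 0.24 for Zfp423 and -1.24 to -0.39 for Klf15, and the counts from 429 to 1073 higher and from 680 to 1282 lower. Of the 5 library fits, Pparg lost its call without naive (1.11, edgeR adjusted p = 0.0610), and Cebpa without control, naive, exhausted or aged-injury (0.82, 0.95, 0.91 and 1.03, edgeR adjusted p = 0.210, 0.167, 0.0975 and 0.0701). Without exhausted 1051 genes were lower, and of the 2 tested libraries Cebpd was -2.60 without aged-injury. Leaving out 1 of the 2 tested libraries leaves a value with no test, and leaving out control, exhausted or aged changes nothing in that test.

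In reticular cells 22 of 364 alternative ratios reversed where the counting interval of the reported ratio left out 1, and 21 of 56 crossed 1 where it did not. By early response group, Cebpb was 1.28 and 1.13 for naive over control in the lowest and middle, 0.595, 0.884 and 0.951 for exhausted over naive in the lowest, middle and highest, and 1.01 for aged-injury over aged in the lowest. Cebpd was 1.10 and 1.12 for naive over control in the middle and highest, and 0.838, 0.722 and 0.751 for exhausted over naive. Zfp423 was 0.929 for aged-injury over aged in the lowest. With the bone rule not applied and 1 UMI of Lepr, exhausted over naive was 0.912 for Cebpb and 0.923 for Cebpd. By depth, with the bone rule not applied, cells of 10000 to 20000 UMIs gave Cebpb 1.09 for naive over control and 0.831 for exhausted over naive, and Cebpd 0.836 for the latter. Cells of 5000 to 10000 UMIs gave Zfp423 1.04 for exhausted over control with the bone rule not applied and Cebpb 1.02 with it. Cells of 2000 to 5000 UMIs gave Cebpa 0.933 with the bone rule and 0.929 without it for aged-injury over aged, and Klf15 1.17 for exhausted over naive with it. Between libraries, Plin1-positive cells were too few for the gates at 3 or 10 UMIs of Plin1 or with Cidec, which were not run. Klf15, with 23 and 34 UMIs in the Plin1-positive sums, is limited by depth.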
